A study of Mus musculus with 11 samples.

Results

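Choroid plexus epithelial cells were picked out of a single-cell RNA-seq survey of the mouse brain after transient stroke, and they numbered 3870 of the 132,437 retained cells (155,804 barcodes before filtering). A retained cell had more than 500 genes, more than 1000 unique molecular identifiers (UMIs, each standing for 1 captured transcript) and under 25% of its UMIs from mitochondrial genes. A retained cell was taken as a choroid plexus epithelial cell when at least 3 of the 6 genes Folr1, Clic6, Kcnj13, Prlr, Kl and Sostdc1 had a UMI, Ttr held at least 1% of its UMIs, and fewer than 2 of 8 markers of other cells (P2ry12, Tmem119, Cldn5, Mog, Mag, Aqp4, Foxj1 and Tmem212) had a UMI. The cells were thus chosen by the values of these 15 genes, which are given below as descriptions. The 11 libraries each came from the right brain of 1 mouse. The mice formed a sham + WT group (3), a sham + Lrg1-/- group (3), an MCAO/R + WT group (2) and an MCAO/R + Lrg1-/- group (3), where MCAO/R is occlusion of the middle cerebral artery followed by reperfusion. By the study's methods the WT mice were young adult C57BL/6 males. The Lrg1-/- mice were conventional knockouts of Lrg1, which encodes a secreted leucine-rich glycoprotein, in a backcrossed C57BL/6N line, and were somewhat older. Genotype thus cannot be told apart from strain background or age. In the Lrg1-/- mice surgery was mixed with sex as read from the transcripts (below). The study's methods list several reperfusion times without tying the sequenced brains to one, and its discussion speaks of short-term effects at a single early time.

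The choroid plexus is a fringe of vascularised tissue that floats in the ventricles. Its epithelium secretes cerebrospinal fluid by moving ions and water from blood to ventricle, closes the blood-cerebrospinal fluid barrier with tight junctions, and releases carrier proteins and growth factors into the fluid. Transthyretin, the product of Ttr, carries thyroid hormone and retinol and is the best known of these proteins.

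The number of choroid plexus epithelial cells differed between genotypes. In sham + WT mice there were 98, 78 and 66 of them (0.710%, 0.792% and 0.699% of the retained cells). In sham + Lrg1-/- mice there were 1037, 350 and 145 (10.95%, 6.17% and 4.46%). The MCAO/R + WT group held 50 and 10 (0.503% and 0.0802%), and the MCAO/R + Lrg1-/- group 385, 1084 and 567 (5.98%, 6.05% and 1.66%). Every Lrg1-/- library lay above every WT library. The group means were 0.733% ± 0.0508 (SD, n = 3), 7.20% ± 3.36 (n = 3), 0.291% ± 0.299 (n = 2) and 4.56% ± 2.52 (n = 3) in that order, and the 95% Wilson intervals, which cover counting error alone, ran from 0.0436 to 0.148% in the smallest library and from 10.3 to 11.6% in the library with the highest share. Within surgery the share was on average 5.37 percentage points higher in Lrg1-/- mice. Because Ttr and the other values that chose the cells also set this share, it is a description without a test. Ttr outside these cells was higher in Lrg1-/- mice too, and its part in the difference was not tested.

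**Figure D1:**
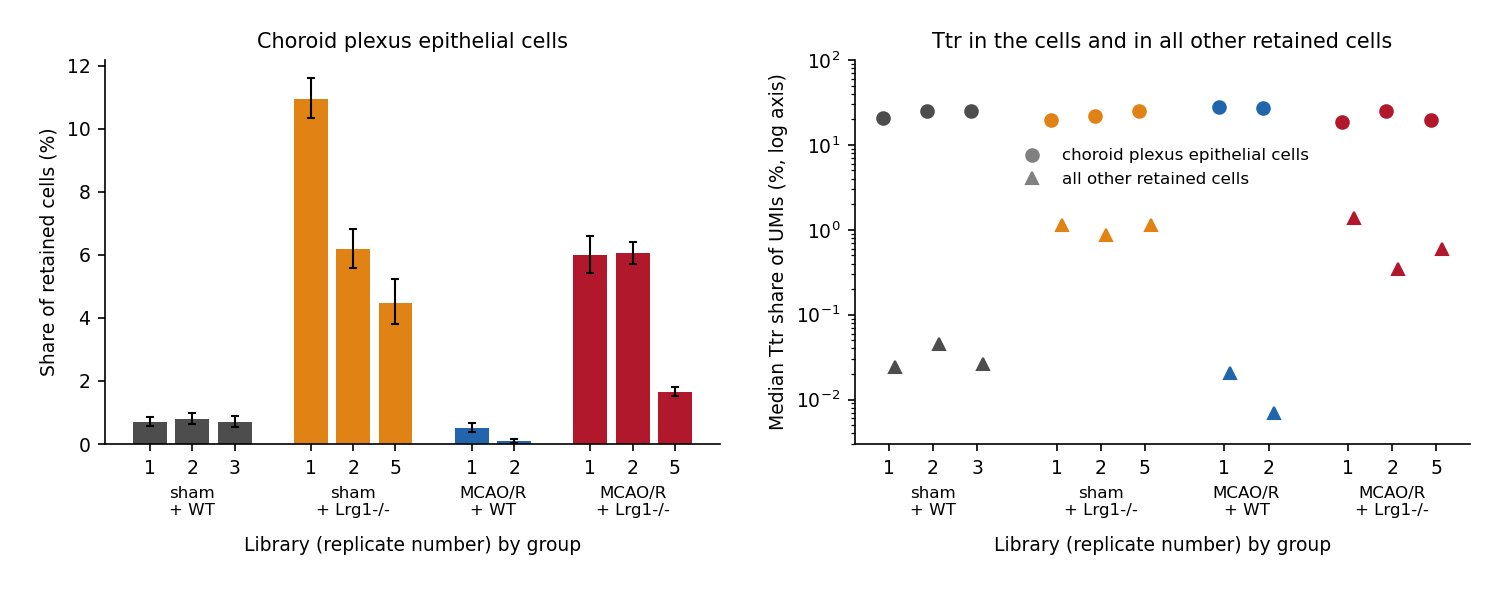
Left, the share of retained cells (%) that were choroid plexus epithelial cells in each library, as bars with 95% Wilson intervals. Right, the median share of a cell's UMIs that came from Ttr (%, log axis) in these cells (circles) and in all other retained cells (triangles). The 6 Lrg1-/- libraries stand above the 5 WT libraries in the left panel, and in the right panel Ttr in the other cells runs from 0.345 to 1.38% in Lrg1-/- libraries and from 0.00692 to 0.0452% in WT libraries.

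The libraries also differed in the choroid RNA found outside these cells. The median Ttr share of all other retained cells was 0.0242 to 0.0452% in sham + WT mice, 0.862 to 1.15% in sham + Lrg1-/- mice, 0.0206% and 0.00692% in MCAO/R + WT mice and 0.345 to 1.38% in MCAO/R + Lrg1-/- mice. Ttr reached 1% of UMIs in 1.79 to 3.35% of the retained cells after sham surgery in WT mice and in 49.99 to 57.1% in Lrg1-/- mice, so the Ttr limit was passed by far more cells in the Lrg1-/- libraries. Among the Lrg1-/- libraries the order differed, since the 3 sham libraries with 10.95, 6.17 and 4.46% of choroid plexus epithelial cells had a Ttr share of 1.13, 0.862 and 1.15% in the other cells. Hemoglobin transcripts were present in the choroid plexus epithelial cells at 10.4 to 77.9 counts per 1,000,000 UMIs (CPM, summed over the list) in WT libraries and at 16,546 to 38,582 CPM in Lrg1-/- libraries. The libraries labelled MCAO/R + Lrg1-/- replicates 1 and 2 had Xist at 89.8 and 85.1 CPM in these cells and Ddx3y at 0 and 1.01 CPM, whereas the other 9 libraries had Xist at 0 to 0.412 CPM and Ddx3y at 75.4 to 104 CPM. No sham library did so, and surgery and sex therefore cannot be fully told apart in Lrg1-/- mice. The counts and gene lists of that comparison are also given without these 2 libraries, which leaves 1 MCAO/R + Lrg1-/- library (replicate 5) that is assumed to vary like the other groups. Pairs of libraries shared 14 to 180 barcodes, and 2 barcodes of choroid plexus epithelial cells occurred in another library's set.

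The selected cells carried the choroid plexus programme beyond the genes that chose them. A further 9 markers were set against endothelial cells (21,871 cells with at least 3 of 6 endothelial markers) and ependymal cells (2140 cells) of the same libraries. Enpp2, which encodes the lysophospholipase autotaxin, had a median of 9517 CPM over libraries in choroid plexus epithelial cells, 210 CPM in endothelial and 318 CPM in ependymal cells. Otx2, the transcription factor that specifies the choroid plexus, had 150, 3.68 and 42.3 CPM, and Kcne2, a potassium channel subunit, had 256, 3.25 and 4.64 CPM. Each of these 3 genes was more abundant in the selected cells than in either comparison set, with Otx2 at 3.54 times the ependymal median. The same held for Aqp1, the apical water channel, at 61.5, 1.71 and 4.14 CPM, for the tight junction gene Cldn2 at 65.0, 0.885 and 5.41 CPM, and for the bicarbonate transporter Slc4a5 at 73.5, 1.63 and 2.16 CPM. Car12 had 97.6, 1.82 and 1.15 CPM. As with Otx2, ependymal cells shared more of the last 2 genes, Slc4a10 at 139, 4.21 and 27.1 CPM and Calml4 at 650, 14.8 and 319 CPM. The 9 genes were higher than in both other cell types in 10 of the 10 libraries with enough cells. The median depth was 2511.5 to 4507 UMIs per choroid plexus epithelial cell, 2786 to 9058 per endothelial cell and 3623 to 14,652 per ependymal cell. A UMI of any of 12 Hox genes, which mark a hindbrain origin, was found in 2 of the 3870 cells. These are transcription factors of low level, so at this depth their absence from a cell does not place it.

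**Figure D2:**
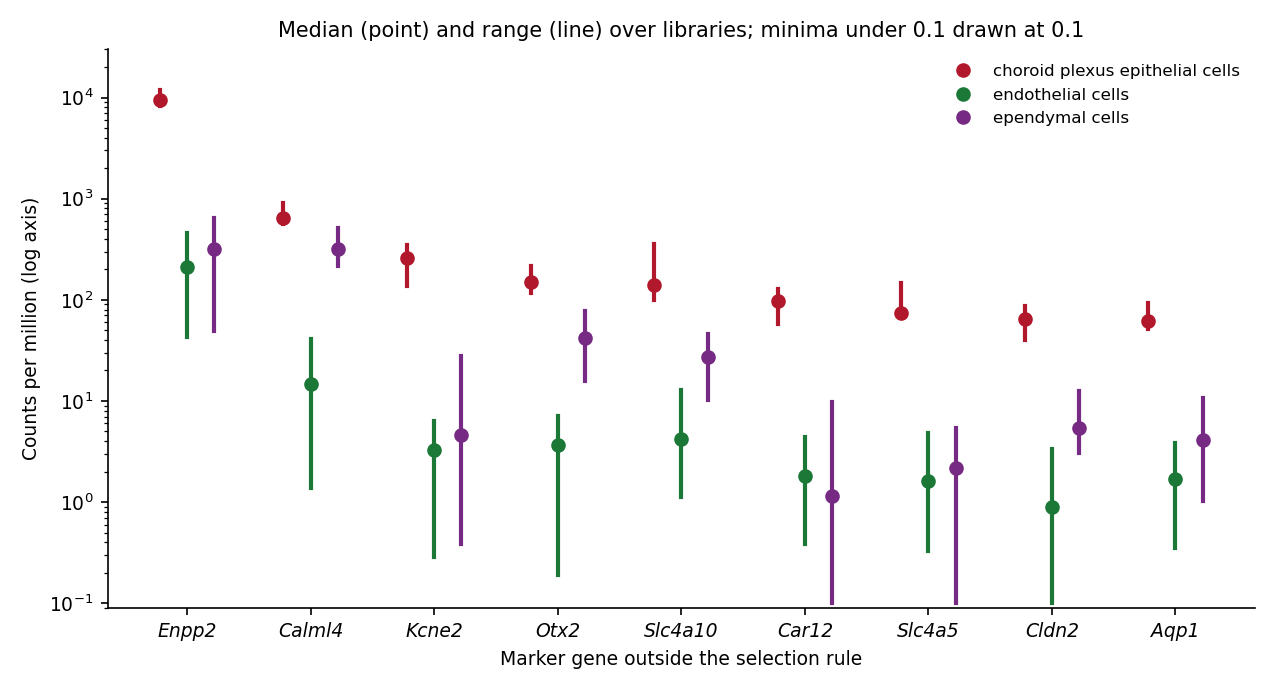
Level (CPM, log axis) of 9 choroid plexus markers outside the selection rule in choroid plexus epithelial, endothelial and ependymal cells, with the median over libraries as a point and the range as a line. The medians in choroid plexus epithelial cells run from 61.5 CPM (Aqp1) to 9517 CPM (Enpp2), and each is above the medians in both other cell types.

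Among the genes of the rule, Sostdc1 stood apart by surgery in both genotypes. Ttr held 182,622, 202,935 and 222,393 CPM in sham + WT mice, 202,470, 231,003 and 237,965 CPM in sham + Lrg1-/- mice, 264,517 and 209,426 CPM in MCAO/R + WT mice and 185,321, 250,094 and 195,103 CPM in MCAO/R + Lrg1-/- mice. Ttr was thus the most abundant transcript of these cells in every library, and its ranges overlapped between groups. Folr1, the folate receptor that carries folate into the cerebrospinal fluid, lay between 693 and 1099 CPM. In Lrg1-/- mice it was 938 to 1099 CPM after sham surgery and 739 to 912 CPM after MCAO/R. In WT mice it was 693 to 826 CPM and 888 to 906 CPM. Kl, the co-receptor Klotho, was 655, 724 and 548 CPM after sham surgery and 374, 445 and 360 CPM after MCAO/R in Lrg1-/- mice. In WT mice it was 556, 494 and 615 CPM and 414 and 718 CPM, so the groups overlapped. Sostdc1, a secreted antagonist of bone morphogenetic protein (BMP) and Wnt signals, read 721, 709 and 661 CPM in sham + WT mice, 625, 608 and 705 CPM in sham + Lrg1-/- mice, 309 and 72.9 CPM in MCAO/R + WT mice and 361, 330 and 255 CPM in MCAO/R + Lrg1-/- mice. All 5 MCAO/R libraries lay below all 6 sham libraries. Because the values of all these genes helped to choose the cells, they are descriptions without a test.

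Cells just inside the marker limit were shallower than those with more markers, whereas cells just inside the Ttr limit were deeper than the median. Cells with 3, 4, 5 and 6 of the 6 markers numbered 928, 942, 925 and 1075, with median depths of 2190, 2841.5, 4104 and 7456 UMIs. Just outside, 1089 cells had 2 of the 6 markers and a median Ttr share of 8.38%, beside 16.3% in the cells with 3. Ttr held 1 to 2% of UMIs in 40 cells inside the limit (median depth 7666.5 UMIs) and 0.5 to 1% in 25 cells outside it (5833 UMIs). A further 7908 cells met the marker and Ttr limits but had 2 or more of the 8 excluding markers, 2597 of them exactly 2. Of the 3870 selected cells, 2535 (65.5%) had 1 excluding marker, with a median depth of 4195 UMIs beside 3083 in those without any. Across all of them the depth ran from 1353 UMIs at the 5th percentile through a median of 3727 to 13,782 at the 95th, and the Ttr share from 4.49% through 21.8% to 40.2%.

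The cells of Lrg1-/- mice were deeper in the libraries with at least 20 cells. The median per library was 2511.5 to 2775 UMIs in sham + WT mice, 3126.5 to 4382 in sham + Lrg1-/- mice, 2676 in the 1 MCAO/R + WT library with at least 20 cells and 3396 to 4507 in MCAO/R + Lrg1-/- mice. The 10 cells of MCAO/R + WT replicate 2 had a median of 6048 UMIs, above every other library. Since UMIs, genes and the detection of markers chose the cells, depth is given as a description without a test. The total behind the gene comparisons was 949,418 UMIs in sham + WT mice, 8,717,505 UMIs in sham + Lrg1-/- mice, 10,365,876 UMIs in MCAO/R + Lrg1-/- mice and 182,640 UMIs in that single MCAO/R + WT library.

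Lrg1 was detected in the choroid plexus epithelial cells of a single library. No UMI was found in 10 of the 11 libraries, and in the 10 cells of MCAO/R + WT replicate 2 there were 7 UMIs (72.9 CPM). In sham + WT mice a count of 0 allows up to 7.27 to 11.7 CPM per library and up to 3.16 CPM over the group. Lrg1 in all other retained cells of those libraries read 1.73 to 5.78 CPM, so a level like theirs was not detectable in a single library. The bound of the group lies within that range. In MCAO/R + WT replicate 1 a count of 0 allows up to 16.4 CPM, and the other cells had 132 CPM of Lrg1. In MCAO/R + WT replicate 2 the other cells had 113 CPM. In the Lrg1-/- libraries, where the gene is deleted, they had at most 0.00602 CPM, so a count of 0 there says nothing of this cell type.

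For each library the counts of its choroid plexus epithelial cells were summed, and edgeR's quasi-likelihood test compared the groups over mice. The test covered 11,338 genes, and calls needed an adjusted p (Benjamini-Hochberg) under 0.05 with a natural-log fold change beyond 0.25 in either direction. MCAO/R + WT replicate 2, with 10 cells, was outside the fit, so the MCAO/R + WT group is 1 library of 50 cells there and is assumed to vary like the other groups. Levels of single genes are CPM in the summed cells, scaled by edgeR's TMM factors. Since RNA of other cells enters each droplet, genes are separated into those whose mean level was at least as high in choroid plexus epithelial cells as in all other retained cells (3723 genes, here choroid-high) and those that were lower (7615 genes). The split uses the mean over all libraries, so a gene can pass it through a group in which it is high, as Thap8 did through MCAO/R + WT replicate 1.

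MCAO/R in Lrg1-/- mice gave the comparison with the most cells (2036 against 1532 in 3 mice each). It called 247 genes (2.18% of those tested), 134 higher (1.18%) and 113 lower (0.997%) after MCAO/R. Of the choroid-high genes 37 were called (0.994%), 10 higher (0.269%) and 27 lower (0.725%), and of the others 210 (2.76%). Without sham + Lrg1-/- replicate 1, 2 or 5 the count was 124, 93 or 90 genes, and without MCAO/R + Lrg1-/- replicate 2 it was 122. Without both Xist-positive libraries, a choice made after seeing the data, 478 of 8797 genes were called (5.43%), 3.10% of those tested higher and 2.33% lower. Of the 247 genes 222 were tested there, and 222 kept their sign. The groups of 242 of the 247 did not overlap, so leaving out libraries could hardly change a sign. The 37 are described first and as a set, a choice made after their values were seen. In both Lrg1-/- groups taken singly, 32 of the 37 were at least as high as in the other cells, and the exceptions were Cirbp, Cstb, Hspb2, Lars2 and Ptgis. Among them were secreted proteins (A2m, Gpx3, Fbln5 and Pcsk2 higher; Igf2 and Defb11 lower), membrane carriers and pumps (Slc6a20a higher; Slc29a4, Slc38a3 and Atp2b3 lower) and enzymes (Ckb higher; Car12, Ltc4s and Ptgis lower).

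**Figure D3:**
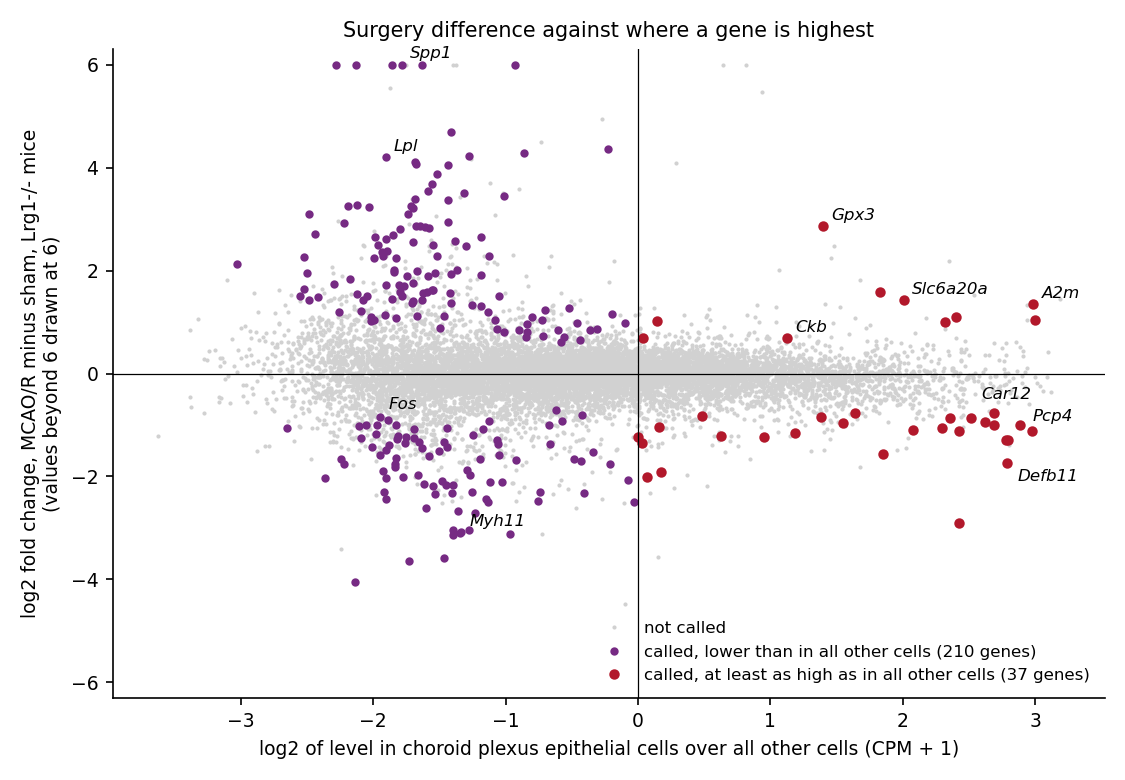
Each point is a tested gene. The horizontal axis is the log2 ratio of its mean level in choroid plexus epithelial cells to that in all other retained cells (CPM + 1), and the vertical axis its fitted log2 fold change, MCAO/R minus sham, in Lrg1-/- mice, with values beyond 6 drawn at 6. Called genes to the right of 0 (37, red) include A2m (1.34) and Pcp4 (-1.0), while Spp1, Lpl and Myh11 lie to the left among the 210 called genes that were lower than in other cells (purple).

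A2m rose most clearly among the choroid-high genes. It encodes alpha-2-macroglobulin, a broad protease inhibitor, on chromosome 6 (121,635,376 to 121,679,227, plus strand, GRCm38). Its levels were 48.9, 69.0 and 58.2 CPM in sham + Lrg1-/- mice and 125, 181 and 135 CPM in MCAO/R + Lrg1-/- mice, with no overlap (log2 fold change 1.34 ± 0.19 SE, edgeR adjusted p = 0.0025). In WT mice it was 35.6, 36.0 and 38.2 CPM after sham surgery and 221 and 385 CPM after MCAO/R. In all other retained cells A2m was 9.19 to 15.3 CPM and 11.8 to 32.2 CPM in the 2 Lrg1-/- groups.

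Slc6a20a, a transporter of proline on chromosome 9 (123,634,770 to 123,678,885, minus strand), went from 32.5, 40.6 and 42.3 CPM to 51.5, 154 and 95.1 CPM (log2 1.43 ± 0.32, adjusted p = 0.0311). The WT libraries had 48.9, 81.7 and 68.8 CPM after sham surgery and 243 and 531 CPM after MCAO/R. Gpx3, a secreted glutathione peroxidase, went from 1.30, 11.6 and 1.32 CPM to 21.7, 36.5 and 28.8 CPM (log2 2.86 ± 0.59, adjusted p = 0.0213). Its UMIs came from 31, 110 and 45 cells in the MCAO/R libraries, whereas in sham + Lrg1-/- replicate 2 a single cell held 13 of 18. Ckb, the brain creatine kinase, which buffers ATP, was abundant throughout and rose from 1192, 936 and 1242 CPM to 1848, 1889 and 1668 CPM (log2 0.68 ± 0.13, adjusted p = 0.0191). The sham + WT libraries had 1474 to 1628 CPM of Ckb, above the sham + Lrg1-/- libraries, and without both Xist-positive libraries Ckb was not called (log2 0.58, adjusted p = 0.104). The remaining choroid-high genes that rose were Fbln5, an extracellular matrix protein (log2 1.58), Pcsk2, a prohormone convertase (1.10), Clic3, an intracellular chloride channel protein (1.04), Cirbp, a cold-inducible RNA-binding protein (1.02), Nt5dc2 (1.01) and Cstb, the protease inhibitor cystatin B (0.68).

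A secreted growth factor, a defensin and several carriers and enzymes were among the 27 choroid-high genes that fell. Igf2, which the choroid plexus releases into the cerebrospinal fluid, is on chromosome 7 (142,650,766 to 142,666,816, minus strand). Its level was 322, 381 and 306 CPM in sham + Lrg1-/- mice and 205, 155 and 145 CPM in MCAO/R + Lrg1-/- mice (log2 -1.0 ± 0.17, adjusted p = 0.0079). In WT mice it was 169, 222 and 218 CPM after sham surgery and 248 and 281 CPM after MCAO/R, so the WT libraries did not show the fall. Igf2 is also made by meningeal fibroblasts and mural cells. The summed level of the fibroblast and mural list in the choroid plexus epithelial cells went from 3030 to 3528 CPM to 1571 to 2064 CPM between the same groups, and its part in the result was not tested. That list includes Igf2 itself and Igfbp2, which had 1382 CPM in these cells and 197 CPM in all other cells. The sum thus contains the fall of Igf2 and does not measure fibroblast and mural RNA alone.

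Pcp4, a small calmodulin-binding protein encoded on chromosome 16 (96,467,606 to 96,525,793, plus strand), was 505, 435 and 483 CPM after sham surgery and 215, 245 and 254 CPM after MCAO/R in Lrg1-/- mice (log2 -1.0 ± 0.14, adjusted p = 0.0027). The WT values lay the same way, at 587, 454 and 562 CPM against 331 and 302 CPM. Defb11, a beta-defensin on chromosome 8 (21,905,376 to 21,906,412, minus strand), went from 89.1, 142 and 177 CPM to 43.7, 40.3 and 35.8 CPM (log2 -1.73 ± 0.26, adjusted p = 0.0036). The lincRNA 2900040C04Rik, on chromosome 14 (76,251,457 to 76,252,327, plus strand), was one of the most restricted transcripts of these cells and went from 864, 729 and 1077 CPM to 440, 361 and 287 CPM (log2 -1.29 ± 0.20, adjusted p = 0.0046). In none of these 3 genes did the Lrg1-/- groups overlap. Ap1s2, a subunit of a clathrin adaptor, went from 220, 150 and 181 CPM to 90.9, 71.7 and 85.7 CPM (log2 -1.16 ± 0.19, adjusted p = 0.0063), and in WT mice from 209, 170 and 138 CPM to 11.0 and 83.3 CPM. Its WT change is tested below.

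Several carriers and enzymes were in the group that fell. Slc29a4, the plasma membrane monoamine transporter, went from 77.1, 101 and 96.6 CPM to 49.9, 49.7 and 41.2 CPM (log2 -0.95 ± 0.18, adjusted p = 0.0136). Slc38a3, a glutamine transporter (log2 -1.21), Atp2b3, a plasma membrane calcium pump (-1.13), Ltc4s, which makes leukotriene C4 (-0.82), Ptgis, which makes prostacyclin (-1.03), and Car12, a carbonic anhydrase (-0.77), were called as well. In the other retained cells of the same libraries several of these transcripts fell too. Pcp4 there was 97.2 to 180 CPM after sham surgery and 18.5 to 70.1 CPM after MCAO/R, and 2900040C04Rik 185 to 312 CPM and 20.5 to 122 CPM.

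**Figure D4:**
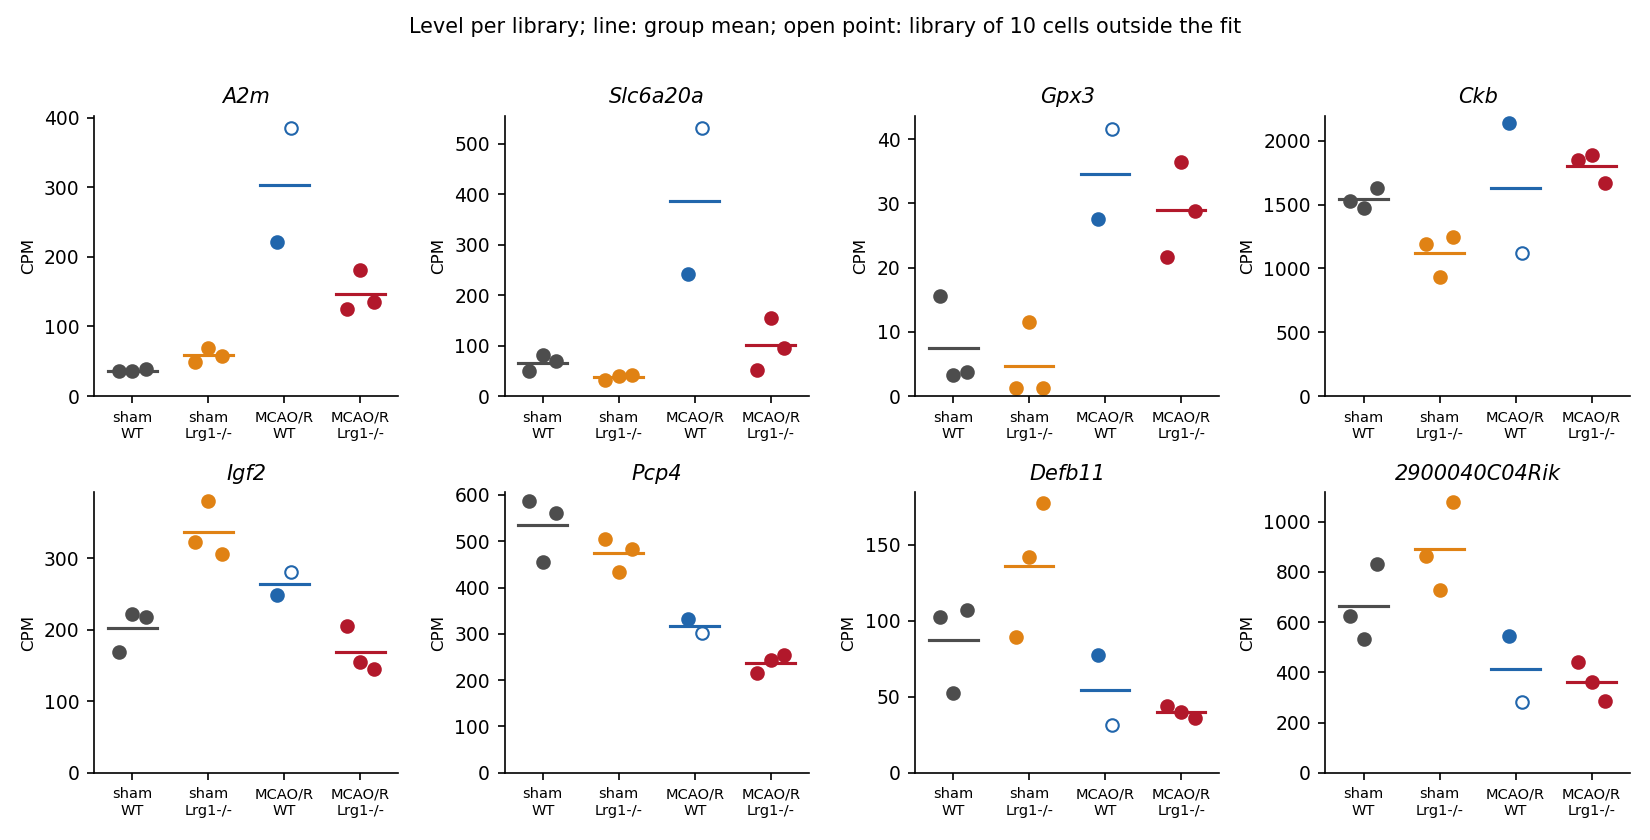
Level (CPM) of 8 choroid-high genes in each library, with the group mean as a line. The open point is MCAO/R + WT replicate 2, with 10 cells, outside the fit. A2m, Slc6a20a, Gpx3 and Ckb are higher and Igf2, Pcp4, Defb11 and 2900040C04Rik lower in the 3 MCAO/R + Lrg1-/- libraries than in the 3 sham + Lrg1-/- libraries, without overlap.

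Of the 37 genes, 32 had the same sign in WT mice (10 of the 10 higher and 22 of the 27 lower), beside 58.2% of all tested genes. So did 161 (76.7%) of the 210 called genes that were lower than in other cells. The 2 comparisons share no library. The exceptions among the 37 were Ccdc167, Car12, Igf2, Ptgis and Hspb2. No interaction between surgery and genotype was called (0 of 11,338 genes, lowest adjusted p = 0.671, 749 genes at an unadjusted p under 0.05), and DESeq2 called 1. For Igf2 the interaction was -1.30 ± 0.34 (adjusted p = 0.692), and for A2m -1.25 ± 0.40 (adjusted p = 0.692). The surgery difference of these genes is thus not shown to differ between genotypes. Leaving out both Xist-positive libraries left 19 of the 37 called, with Ckb, Fbln5, Pcsk2, Cstb, Car12, Ltc4s and Ptgis among those lost, and thinning every cell to 1000 UMIs left 18 of 30 tested. Keeping cells without any UMI of the 8 excluding markers left 10 of 33, keeping cells under 10% mitochondrial UMIs left 22 of 37, and a term for the Xist-positive libraries left 18 of 37. Leaving out a single library left 11 (sham + Lrg1-/- replicate 2, or MCAO/R + Lrg1-/- replicate 2), 13 (sham + Lrg1-/- replicate 5), 14 (sham + Lrg1-/- replicate 1) or, with any other library, 25 to 37 of them called. Each gene that could be tested kept its sign under these alternatives. Where libraries were left out this was largely set beforehand, since the groups of called genes rarely overlapped. A2m, Igf2, Pcp4, Defb11, Ap1s2 and 2900040C04Rik passed under every alternative, with log2 fold changes of 1.18 to 1.49 for A2m, -1.21 to -0.90 for Igf2, -1.09 to -0.85 for Pcp4, -1.98 to -1.49 for Defb11 and -1.63 to -1.12 for 2900040C04Rik.

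Few genes in the lists of epithelial function were called after MCAO/R in Lrg1-/- mice, although most lay below 0. Over all tested genes the median log2 fold change was -0.01, with 51.4% below 0, and 1.18% were called higher and 0.997% lower. Of 24 genes for proteins secreted into the cerebrospinal fluid 20 were tested, and Igf2 and Pltp, the phospholipid transfer protein (log2 -1.0 ± 0.22, adjusted p = 0.0302), fell while none rose (list median -0.23, 15 of 20 below 0). Of 26 tested genes for ion and water movement Car12 fell and none rose (median -0.24, 22 of 26 below 0), and of 26 tested carriers of organic solutes Slc29a4 fell and none rose (median -0.39, 22 of 26 below 0). Enpp2, the most abundant gene of the secreted list, stayed between 8549 and 10,766 CPM in the Lrg1-/- libraries of both surgeries. Of 12 tested junction genes 9 were below 0 (median -0.29) and Cldn11 rose (log2 1.75), from 34.1, 31.6 and 45.0 CPM to 106, 83.5 and 175 CPM. Cldn11 is also a gene of oligodendrocytes, and the other retained cells had 134 to 202 CPM of it after sham surgery and 168 to 412 CPM after MCAO/R. Likewise, Ptgds and Trf of the secreted list are also in the oligodendrocyte list below, and the carrier Slco1a4 is in the endothelial list. No gene of the choroid transcription factor list passed the test (0 of 11 tested), and none passed in the lists for cilia (16), the heat shock response (14), protein folding (16), the integrated stress response (10), interferon response (22), class I antigen presentation (11) or nuclear-encoded respiratory chain subunits (73). Without both Xist-positive libraries 2 secreted genes rose (Ptgds and Trf) and 2 fell (Igf2 and Timp3), Kcne2 fell, and 1 carrier rose (Slc7a11) and 4 fell (Abcg2, Slc29a4, Slco1a4 and Tfrc), while Car12 (log2 -0.90, adjusted p = 0.0671) and Pltp (-0.90, adjusted p = 0.112) were not called. Of 11 junction genes tested in that refit Cldn11 rose (log2 2.30) and Tjp1, a scaffold protein of tight junctions, fell, with 8 of 11 below 0 (median -0.65). In the other lists of this paragraph it called Slc7a11 higher and Hspb1, Pdia4, H2-T23 and 4 respiratory chain genes lower (Atp5md, Cox7c, Cox8b and Ndufa1, with 59 of 73 tested below 0), and Meis2 and Msx1 in opposite directions.

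Of 18 tested immediate early genes 6 fell and none rose, namely Fos, Junb, Egr1, Zfp36, Nr4a1 and Btg2, and 18 of 18 were below 0 (median log2 -0.87), beside 0.997% of all tested genes called lower. Without both Xist-positive libraries Zfp36 alone was called, with 17 of 18 below 0 (median -0.83), and Fos (log2 -0.88, adjusted p = 0.103) and Nr4a1 (-1.41, adjusted p = 0.0626) were not. Fos, an AP-1 subunit, went from 759, 1448 and 1025 CPM to 596, 620 and 582 CPM (log2 -0.84 ± 0.19, adjusted p = 0.0348), and Nr4a1, an orphan nuclear receptor, from 98.4, 182 and 254 CPM to 46.4, 70.5 and 64.7 CPM (log2 -1.51 ± 0.30, adjusted p = 0.0189). The summed level of this list fell in all other cells as well, from 22,494 to 27,826 CPM to 12,417 to 16,989 CPM. The part of these transcripts from other cells in the result was not tested.

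Of 14 tested glucocorticoid-induced genes 3 rose and none fell, beside 1.18% of all tested genes called higher. Fkbp5, a co-chaperone of the glucocorticoid receptor, went from 3.25, 7.09 and 3.97 CPM to 14.7, 26.5 and 40.0 CPM (log2 2.61 ± 0.45, adjusted p = 0.0084). In WT mice it was 0 to 4.45 CPM after sham surgery and 71.7 and 104 CPM after MCAO/R. Sgk1, a kinase that raises epithelial sodium transport, went from 203, 166 and 195 CPM to 280, 300.1 and 360 CPM (log2 0.73 ± 0.15, adjusted p = 0.0222), and from 172 to 219 CPM to 397 and 406 CPM in WT mice. Neither gene overlapped between surgeries in either genotype. The third was the transcription factor Zbtb16 (log2 2.26). All 3 were called without both Xist-positive libraries, at log2 3.19 (Fkbp5), 0.95 (Sgk1) and 3.0 (Zbtb16), as was Sult1a1. Both Fkbp5 and Sgk1 were higher in other cells than in the choroid plexus epithelial cells and moved the same way there, Fkbp5 from 11.1 to 13.7 CPM to 53.5 to 115 CPM.

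Of 20 tested genes of the antioxidant and glutathione list 3 rose and none fell (Hmox1, Gpx3 and the ferritin light chain gene Ftl1, log2 1.05), with 18 of 20 above 0 and a median of 0.51. Over all tested genes, the measure for each list of this paragraph, 1.18% were called higher and 0.997% lower, and 48.6% lay above 0. Ftl1, an iron store subunit, was 1115, 1160 and 1081 CPM after sham surgery and 1641, 2640 and 2659 CPM after MCAO/R. The summed level of the antioxidant list rose in all other cells as well, from 8478 to 10,724 CPM to 15,824 to 20,628 CPM. The metallothionein Mt2 rose (log2 1.89, 1 of 3 tested), as did Hilpda of the hypoxia list (log2 1.57, 1 of 15 tested). Of 20 tested acute phase genes 3 rose (Serpina3n, Timp1 and the chemokine Ccl2). Ccl2 went from 15.8, 18.1 and 21.2 CPM to 83.6, 170 and 77.0 CPM (log2 2.65 ± 0.31, adjusted p = 0.00068). Of 28 tested genes of transforming growth factor beta and BMP signalling, the pathway that Lrg1 is known to modulate, the inhibitory Smad7 (log2 -1.03) and the latency protein Ltbp1 (-2.16) fell and none rose, with a list median of -0.44. Of the called genes named so far in this paragraph, Gpx3 alone was choroid-high. The part of transcripts from other cells in these results was not tested. Without both Xist-positive libraries Hmox1, Gpx3, Ftl1, Mt2, Hilpda, Serpina3n, Ccl2 (log2 2.15) and Ltbp1 were called in the same direction, Smad7 was not (-1.09, adjusted p = 0.088), and Timp1 did not pass the filter on low counts there. That refit also called Fth1, Gsr and Slc7a11, Lcn2, Saa3 and Vcam1 higher and Bmpr2, Eng and Id1 lower in these lists.

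The largest changes after MCAO/R in Lrg1-/- mice were in genes that other cells expressed more highly. Among genes whose groups did not overlap and whose mean reached 20 CPM, the 10 that rose most were Xist, Spp1, Chil3, Serpina3n, Lpl, Il1r2, Msr1, Cd72, Ms4a6d and Gpr84, several of them genes of activated microglia and macrophages. Spp1, which encodes osteopontin, was 1.30, 2.58 and 0 CPM after sham surgery and 181, 1810 and 761.9 CPM after MCAO/R in the choroid plexus epithelial cells. In all other cells it was 1.97 to 5.67 CPM and 874 to 5564 CPM. Lpl, lipoprotein lipase, went from 4.23, 1.29 and 6.62 CPM to 46.4, 90.8 and 76.2 CPM, and from 9.39 to 15.8 CPM to 174 to 320 CPM in the others. The 10 that fell most were Gkn3, Pln, Myh11, Palld, Myl9, AY036118, Nexn, Ltbp4, Rasl11a and Spock2, of which Myh11, smooth muscle myosin, fell from 119, 112 and 213 CPM to 8.90, 16.2 and 26.4 CPM. In the other cells Myh11 fell from 256 to 290 CPM to 59.5 to 86.2 CPM. Without both Xist-positive libraries Spp1, Lpl (log2 4.31) and Myh11 (-2.43) were called in the same direction.

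Markers of other cells also differed between the surgeries within the choroid plexus epithelial cells of Lrg1-/- mice. Over all tested genes 1.18% were called higher and 0.997% lower. Of 11 microglial genes 4 rose (C1qa, C1qb, C1qc and Fcrls) and Siglech fell, and the summed level was 1945 to 3288 CPM after sham surgery and 3015 to 5734 CPM after MCAO/R in Lrg1-/- mice. Of 9 tested oligodendrocyte genes Cldn11 rose and 8 were above 0, with a sum of 2746 to 2833 CPM against 2956 to 5328 CPM, which did not overlap. Gfap rose (log2 3.38, 1 of 8 astrocyte genes). Of 9 tested endothelial genes Itm2a and Spock2 fell, and of 9 tested fibroblast and mural genes Acta2 and Igf2. None of 11 tested leukocyte genes was called, with a summed level of 290 to 522 CPM against 346 to 1544 CPM. Without both Xist-positive libraries 6 of 11 microglial, 7 of 9 oligodendrocyte and 3 of 9 tested leukocyte genes (Lyz2, S100a8 and S100a9) rose and 7 of 9 endothelial genes fell, beside 3.10% of all genes of that refit called higher and 2.33% lower. No gene of the microglial, oligodendrocyte, endothelial, astrocyte, fibroblast and mural or leukocyte list was at 0 in either Lrg1-/- group. The part of these transcripts in the results was not tested.

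**Figure D5:**
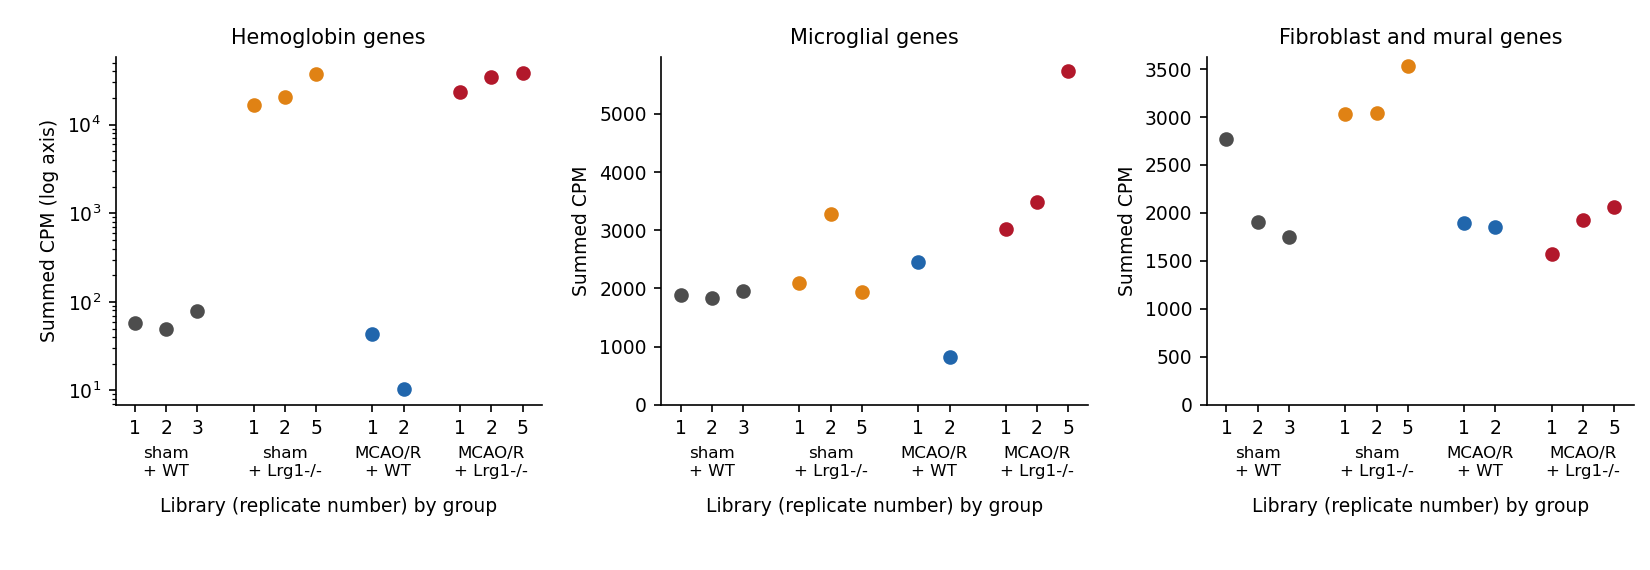
Summed level (CPM) of hemoglobin (log axis), microglial, and fibroblast and mural genes in the choroid plexus epithelial cells of each library. The fibroblast and mural list includes Igf2 and Igfbp2, which these cells express themselves. Hemoglobin separates the 6 Lrg1-/- libraries (16,546 to 38,582) from the 5 WT libraries (10.4 to 77.9), the microglial sum is 3015 to 5734 in MCAO/R + Lrg1-/- mice beside 1945 to 3288 in sham + Lrg1-/- mice, and the fibroblast and mural sum is 3030 to 3528 in sham + Lrg1-/- mice and 1571 to 2064 in MCAO/R + Lrg1-/- mice.

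After sham surgery, 22 genes (0.194% of those tested) differed between Lrg1-/- and WT mice, 18 higher (0.159%) and 4 lower (0.0353%) in Lrg1-/- mice. Without sham + WT replicate 1, 2 or 3 the count was 6, 4 or 7 genes, without sham + Lrg1-/- replicate 1 or 2 it was 5 or 7, and without MCAO/R + Lrg1-/- replicate 5, which is in neither group, it was 38. Of the 18, 4 were hemoglobin genes, led by Hbb-bs at 17.8, 13.1 and 30.6 CPM in WT mice and 8848, 10,378 and 19,792 CPM in Lrg1-/- mice. Hemoglobin transcripts are typical of red blood cells, and their source in these cells was not tested. In all other retained cells the summed hemoglobin level was 305 to 387 CPM in sham + WT mice and 36,348 to 91,333 CPM in sham + Lrg1-/- mice. Over both surgeries the sum in choroid plexus epithelial cells was 28,532 CPM higher in Lrg1-/- mice (two-sided exact permutation test over mice, p = 0.005, the smallest it can give, Benjamini-Hochberg adjusted p = 0.03 over 6 measures). The difference in the microglial sum, Lrg1-/- minus WT, was 1500 CPM and did not pass after adjustment over these 6 measures (exact permutation test, p = 0.025, adjusted p = 0.075). Over all 9 measures that were run, the adjusted p of the same permutation test was 0.045. The outcome for the microglial sum thus depends on the family, which was chosen after seeing the data.

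Among the other genes, B2m, the invariant chain of class I major histocompatibility molecules, was 122, 114 and 126 CPM in WT and 283, 549 and 402 CPM in Lrg1-/- mice (log2 1.76 ± 0.24, adjusted p = 0.0075). H2-Q7, a class I heavy chain gene of a family of near-identical copies, was 0, 3.27 and 3.82 CPM and 25.04, 25.2 and 49.0 CPM. Of the 11 tested class I genes, B2m was called and 11 had a positive sign (median log2 1.20). B2m was higher in all other retained cells too, at 559 to 566 CPM in WT and 726 to 1307 CPM in Lrg1-/- mice. Of 77 tested cytoplasmic ribosomal protein genes 3 rose (Rps23, Rps6 and Rpl34), and 77 had a positive sign (median log2 0.44, beside 0.03 and 52.8% positive over all genes). Their summed level was 56,923 to 58,671 CPM in WT and 66,329 to 79,505 CPM in Lrg1-/- mice. In all other retained cells it was 45,202 to 49,493 CPM and 74,481 to 89,062 CPM. The part of RNA from other cells in this result was not tested. Rps23 was 729, 611 and 799 CPM in WT and 1366, 1249 and 1236 CPM in Lrg1-/- mice (log2 0.85 ± 0.14, adjusted p = 0.0254).

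Cxcl10, an interferon-induced chemokine, was lower in Lrg1-/- mice, with 55.6, 58.8 and 38.2 CPM in WT and 6.50, 5.80 and 14.6 CPM in Lrg1-/- mice (log2 -2.75 ± 0.36, adjusted p = 0.0049). Other retained cells had 443 to 619 CPM of Cxcl10 in WT and 30.0 to 46.2 CPM in Lrg1-/- mice. Of 22 tested genes of the interferon list, Rtp4 was called, and it was higher in Lrg1-/- mice (4.45, 3.27 and 0 CPM in WT against 22.9, 20.6 and 23.8 CPM). In that list 18 of 22 had a positive sign (median log2 0.76, beside 0.03 and 52.8% positive over all genes). There were 3 choroid-high genes among the calls (0.0806% of the 3723), and none of them, Grm8 included, was called by edgeR without sham + WT replicate 1 or 2 or without sham + Lrg1-/- replicate 1 or 2, while 9 choroid-high genes were without MCAO/R + Lrg1-/- replicate 5. Grm8 and Cmss1 were lower than in the other cells in 1 of the 2 groups. Grm8, a metabotropic glutamate receptor, was 35.6, 45.8 and 11.5 CPM in WT and 2.76, 2.58 and 3.97 CPM in Lrg1-/- mice (log2 -3.43 ± 0.51, adjusted p = 0.0117), and Cmss1 and Gm49980 were higher. Wdfy1, the 1 tested gene of a list of genes that differ between C57BL/6 substrains, was 11.1, 3.27 and 7.64 CPM in WT and 42.6, 36.8 and 33.1 CPM in Lrg1-/- mice (log2 2.29 ± 0.36, adjusted p = 0.0215). Gm42418 and AY036118, also called, overlap on opposite strands and their levels are uncertain. No gene was called of the lists for secreted proteins (20 tested), ion and water movement (26), organic solute carriers (26), junctions (12), choroid transcription factors (11) or transforming growth factor beta and BMP signalling (28).

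MCAO/R in WT mice could be tested on 1 MCAO/R library of 50 cells against 3 sham libraries. It called 12 genes (0.106%), 11 higher (0.097%) and 1 lower (0.00882%). Without sham + WT replicate 1 or 2 edgeR called no gene, without sham + WT replicate 3 it called 7, and without MCAO/R + Lrg1-/- replicate 1 or 5, in neither group, 19 each. A2m (log2 2.60 ± 0.35, adjusted p = 0.0126) was among them, with 40 UMIs spread over 16 of the 50 cells and 385 CPM in the second library, which the fit did not use. Arl6ip1, an endoplasmic reticulum membrane protein on chromosome 7 (118,118,891 to 118,129,662, minus strand), was 1439, 1742 and 1896 CPM after sham surgery and 3659 and 3029 CPM after MCAO/R (log2 1.11 ± 0.18, adjusted p = 0.0281), with UMIs in 50 of 50 cells. Rdh5, a retinol dehydrogenase, was 380, 379 and 428 CPM after sham surgery and 899 and 406 CPM after MCAO/R (log2 1.19 ± 0.21, adjusted p = 0.0459), and the second MCAO/R library was not above the sham range. The cold-inducible Rbm3 (log2 1.91) and the sulfotransferase Sult1a1 (3.06) rose too, and Ap1s2 fell (-3.97 ± 0.61). Ap1s2 had 2 UMIs in 2 cells of the MCAO/R library, so its fold rests on a count near 0, and its level in the second library, given above, was higher. For 6 of the 12 genes more than 50% of the UMIs in the MCAO/R library came from a single cell, as with Thap8 (28 of 28), Tnf (43 of 54), Plek (72 of 94) and Ctsc (60 of 73). The calls of these 6 genes rested mostly on 1 cell each.

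After MCAO/R, 8 genes (0.0706%) differed between Lrg1-/- mice and that WT library, and leaving out 1 library at a time gave 5 to 15, the latter without MCAO/R + Lrg1-/- replicate 5. Higher in Lrg1-/- mice (5 genes, 0.0441%) were 4 hemoglobin genes and Tmsb4x, the actin-binding thymosin beta 4, at 1595 CPM in the WT library and 3762, 4177 and 4453 CPM in Lrg1-/- mice (log2 1.37 ± 0.23, adjusted p = 0.0499). In the 10 cells of the second WT library Tmsb4x was 1218 CPM. In all other retained cells it was 4481 to 5416 CPM in WT and 9314 to 11,156 CPM in Lrg1-/- mice. Lower (3 genes, 0.0265%) were Rdh5 (899 CPM in the WT library against 319, 401 and 425 CPM), Ifih1 and Thap8, of which Ifih1 and Thap8 rested mostly on 1 cell each. The second WT library, at 406 CPM of Rdh5, lay within the Lrg1-/- range. As 2 of the 3 Lrg1-/- libraries are Xist-positive and the WT library is not, genotype is mixed with sex here too. Without both of them Rdh5 was not called (log2 -1.13, adjusted p = 0.107), nor was Thap8, while Tmsb4x (log2 1.43, adjusted p = 0.041) and Ifih1 were. Apart from hemoglobin, no member of the gene lists passed, and the ribosomal list had a median of 0.47 with 75 of 77 above 0, where the median over all genes was 0.22. The summed ribosomal level was higher in all other retained cells too, at 48,988 to 57,263 CPM in WT and 78,741 to 104,007 CPM in Lrg1-/- mice.

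The genotype difference was also set beside that in endothelial cells of the same libraries. Those cells held transcripts of choroid-high genes at levels that differed by genotype (Otx2 and 2900040C04Rik, below). The comparison thus cannot tell what is particular to the choroid plexus epithelium. The genotype difference in choroid plexus epithelial cells minus that in endothelial cells was called for 115 of 16,439 genes after sham surgery (0.7%, with 0.237% higher and 0.462% lower) and for 41 after MCAO/R (0.249%, with 0.0487% higher and 0.201% lower). Scaling by median ratios in place of TMM gave 5 higher and 57 lower after MCAO/R. Of the 76 lower genes after sham surgery 73 were choroid-high, as were all 33 after MCAO/R, Thap8 among them. In endothelial cells 73 of the 73 and 32 of the 33 had a higher mean in Lrg1-/- than in WT mice. In choroid plexus epithelial cells the means of 64 and 22 of them lay within 1.5 times of each other, those of 8 and 10 were lower in Lrg1-/- mice beyond that, and 1 each was higher. Where the choroid means are near each other, a lower difference requires a higher endothelial mean in Lrg1-/- mice. The endothelial counts are thus partly set by the calls. The genes that follow were chosen after their values were seen. Otx2 had 161 CPM in Lrg1-/- and 198 CPM in WT choroid plexus epithelial cells after sham surgery, and 5.41 and 0.325 CPM in endothelial cells (difference of log2 fold changes -4.34). The lincRNA 2900040C04Rik had 993 and 729 CPM in choroid plexus epithelial cells, and 25.5 and 0.563 CPM in endothelial cells (-5.02). In contrast, Trpm3, a cation channel, had 599 and 1308 CPM in choroid plexus epithelial cells after sham surgery, and 49.2 and 39.0 CPM in endothelial cells (-1.37), but its choroid libraries overlapped (443 to 886 CPM in Lrg1-/- and 823 to 2154 CPM in WT mice). Rdh5 after MCAO/R had 439 and 956 CPM, and 14.9 and 6.21 CPM in endothelial cells (-2.32).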

How the data were processed

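The data are droplet-based 3′ single-cell RNA-seq of 11 mouse brains, 1 library per mouse. The authors deposited filtered matrices of UMI counts per gene and cell, made with Cell Ranger (7.0.1 in the file headers; STAR and mm10 in the submitters' processing notes). The study excluded clusters rich in both red blood cell and microglial transcripts, and that step was not repeated. By its methods the study predicted doublets with Scrublet, and whether cells were removed for it before deposit is not said. The main analysis removed none, and leaving out the 6% of cells with the highest doublet scores was an alternative.

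Cells were chosen by the marker rule given in the report. The members and gene lists (33 lists) were chosen with earlier results of these data known. Counts were summed over the chosen cells of each library, and libraries with at least 20 such cells (10 of 11) were compared with edgeR 4.0.16 in R 4.3.3 (TMM scaling, filterByExpr, quasi-likelihood test, Benjamini-Hochberg adjustment over 11,338 genes). All groups entered 1 fit without covariates. Genes of the marker rule and mitochondrial genes were left out of the calls. Levels of single genes are TMM-scaled CPM of the summed counts (by the total alone in the library outside the fit), and levels of gene lists, markers and all other cells are CPM of the total. The comparison with endothelial cells was scaled by TMM over both cell types, with the library as a block. Measures with 1 value per mouse were compared by two-sided exact permutation tests, with genotype permuted within surgery. Tests of the share and depth of cells (3 of 9 measures) were run but are not used, since the selection sets these values, and p-values were adjusted over the other 6 measures, a family chosen after seeing the data. Replicates within a group differed beyond sampling noise. Counts of UMIs per library and their limits are given in the report. Named genes were the 10 largest changes in each direction among called genes whose groups did not overlap with a mean of at least 20 CPM in the higher group, and 2 to 4 called members of each list. Other genes were chosen after their values were seen and are named as such. Gene positions are from GENCODE mouse release 21 (GRCm38). DESeq2 1.42.0, other scaling and filters, the replicate number as a block and leaving out each library were tried as alternatives. The scripts were tested on simulated counts with known changes.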

Additional observations from a re-analysis of the deposited data

Results flagged for a closer look

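The genotype difference differed between choroid plexus epithelial and endothelial cells for 115 genes after sham surgery and for 41 genes after MCAO/R (edgeR test of the difference itself, library as a block). After MCAO/R the 33 choroid-high genes among the 41 were all lower in that difference, as were 73 of the 81 choroid-high genes among the 115. The mean level in endothelial cells was higher in Lrg1-/- mice for 32 of those 33 and 73 of those 73 genes, which is partly set by the call of a lower difference. The part of the endothelial level in the differences was not tested.

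The 10 choroid plexus epithelial cells of MCAO/R + WT replicate 2 were outside the gene comparisons. Of 37 genes examined (the acute phase and glucocorticoid lists and Lrg1), 12 (32.4%) stood above every sham + WT library there, against 581 (2.77%) of 20,966 genes with a UMI in any library. Of genes with at least 3 UMIs there, the shares were 12 of 27 (44.4%) and 581 of 5218 (11.1%). Values are given with 95% Poisson intervals that cover counting error alone, all in CPM without TMM scaling. Each of the 12 genes had at least 3 UMIs and a lower limit of its interval above the highest sham + WT library, not only its level. Genes of inflammation and acute phase response were Lcn2 at 364.3 CPM (254 to 507, highest sham + WT library 3.89), Il1r1 at 458.0 (333 to 615, against 27.3), Vcam1 at 489.2 (359 to 651, against 175), Icam1 at 135.3 (72.05 to 231, against 46.5), Nfkbia at 707.8 (550 to 897, against 264), Serpina3n at 52.04 (16.9 to 121, against 0) and Ch25h at 31.22 (6.44 to 91.3, against 0). Genes induced by glucocorticoids were Fkbp5 at 104.1 CPM (49.9 to 191, against 4.85), Zbtb16 at 135.3 (72.05 to 231, against 3.57) and Sgk1 at 405.9 (289 to 555, against 239). Cdkn1a, a cell cycle inhibitor, was at 364.3 CPM (254 to 507, against 114), and Lrg1 itself at 72.86 CPM (29.3 to 150, against 0). All other retained cells of the same library had more of 9 of the 12, with Lcn2 at 569.3 CPM, Lrg1 at 112.6 CPM and Fkbp5 at 426.1 CPM, and less of Il1r1 (156.3 CPM), Vcam1 (72.54 CPM) and Ch25h (30.02 CPM). The library also stood apart in quality. Its median mitochondrial share was 10.6% (4.63 to 6.68% in the other 10 libraries), and Malat1 was at 10,533 CPM, Neat1 at 458 CPM and Trpm3 at 5891 CPM, against at most 5797, 170 and 1981 CPM (TMM-scaled) in sham + WT mice. The part of this in the 12 values was not tested. These are values of 10 cells of 1 mouse, with no replicate.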

How the results depend on the processing

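The count of called genes moved with several choices. Without a filter on low counts it was 122 for genotype after MCAO/R, 311 for genotype after sham surgery, 128 for surgery in WT mice, 769 for surgery in Lrg1-/- mice, 23 for the interaction, and 160 and 354 for the comparison with endothelial cells after MCAO/R and sham surgery. With DESeq2 it was 34, 100, 28 and, for the interaction, 1. Scaling by median ratios gave 62 genes for the endothelial comparison after MCAO/R. It moved the median of all genes by less than 0.1 (log2) except there, where the share of higher calls went from 19.5 to 8.06%. DESeq2 called 9 higher and 25 lower genes for genotype after MCAO/R, against 5 and 3, and 68 and 32 after sham surgery, against 18 and 4. Thinning each cell to 1000 UMIs gave 13, 50 and, for surgery in WT mice, 2 genes. Ttr of at least 5% of UMIs gave 5, 5 (surgery in WT mice) and 163 (surgery in Lrg1-/- mice), and cells without an excluding marker 0, 10, 1 and 76. A minimum of 10 cells per library gave 17 for genotype after MCAO/R and 1 for surgery in WT mice. Counting choroid-high genes alone gave 2, 3, 6 and 37. A term for the Xist-positive libraries, chosen after seeing the data, gave 39 and 449 for genotype after sham surgery and surgery in Lrg1-/- mice, and leaving both out gave 15, 59, 32, 478 and 1 for the interaction. Leaving out each library gave 5 to 15, 4 to 38, 0 to 19, 90 to 366 and 0 to 3 genes, and 30 to 88 and 56 to 322 against endothelial cells. The lowest count for surgery in Lrg1-/- mice was without sham + Lrg1-/- replicate 5 and the highest without MCAO/R + Lrg1-/- replicate 1, and no value could be had for contrasts with MCAO/R + WT without its replicate 1. The measures per mouse, Lrg1-/- minus WT, ranged over 4.43 to 6.09 points for the share of cells, 948 to 1261 UMIs and 269 to 386.5 genes for the median depth, -1.24 to -0.291 points for mitochondrial UMIs, and 25,394 to 30,726, 1087 to 1906, -795 to -79.5 and -549 to 489 CPM for hemoglobin, microglial, oligodendrocyte and endothelial transcripts. Without the highest doublet scores the median number of genes differed by 370.75, and under 10% mitochondrial UMIs the mitochondrial difference was 0.859, reversed from -1.07. In surgery in WT mice B4galt1 reversed to -0.75 with thinning, and Ctsc to -0.21 with Ttr of at least 5% and to -0.55 without excluding markers, and both genes came mostly from 1 cell. With the replicate number as a block the counts were 5, 18, 12 and 283, with 0 for the interaction. The 7 same-numbered pairs correlated between -0.135 and 0.0508, so the numbers were not taken to pair mice. The cause of these shifts was not tested. Of 1844 refits of the 82 named genes of surgery in Lrg1-/- mice, 1418 stayed past the threshold, 426 did not and 0 changed sign. In refits that leave out libraries the sign was largely set by the choice of called genes, whose groups rarely overlapped.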
